A study of Mus musculus with 4 samples.

Results

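The vascular endothelial growth factor (VEGF) family was followed through 9 genes in the infarcted heart of KDM5B knockout (KO) and wild-type (WT) mice. They comprised the ligands Vegfa, Vegfb, Vegfc and Pgf, the receptor tyrosine kinases Flt1, Kdr and Flt4, and the co-receptors Nrp1 and Nrp2. Members were chosen by gene name: every non-control probe that the scanner files name for one of these genes was taken. This gave 20 probes for 9 genes, out of 20049 genes with a symbol on the array, and all 9 members were among the 15062 genes bright enough to test. RNA was hybridised to 4 one-colour Agilent arrays of the mouse transcriptome, 2 per genotype, which the titles number 2 and 3 in each group. The labels do not say how many hearts each array stands for. The WT mice were C57BL/6. The KO mice, on the same background, had lost the part of Kdm5b that encodes the JmjC domain through CRISPR/Cas9 editing, with a frameshift, and no driver restricted to a cell type was named. Both groups had a permanent tie around the left anterior descending coronary artery and were sampled 7 days later. All mice were labelled male, and the methods give an age of 8 to 10 weeks at surgery. No uninjured heart was among the 4 arrays, so the values compare genotypes after infarction and not infarction with health.

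VEGF ligands are secreted dimers that bind receptor tyrosine kinases on endothelial cells and set off vessel growth, permeability and endothelial survival. VEGF-A acts mainly through the kinase encoded by Kdr, while the product of Flt1 binds VEGF-A tightly with weak kinase output and also binds VEGF-B and placental growth factor. VEGF-C acts through the product of Flt4, chiefly in lymphatic vessels, and the neuropilins hold ligands and receptors together. In an infarcted heart, surviving muscle, macrophages and stromal cells are sources of the ligands, and new vessels form at the edge of the scar.

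Each value below reads out a short stretch of one transcript. All probes were 60 bases long, and the first 30 bases of 3 Vegfa probes and of the brightest probe of every other gene are shown because several results turn on whether probes in different stretches of a gene gave the same pattern. Coordinates are those of the scanner files on build mm9, and lower case is used throughout because no base is singled out.
Vegfa, chr17:46154387-46154446, minus strand: cagatcggtgacagtcactagcttgtcctg
Vegfa, chr17:46155512-46155571, minus strand: actggattcgccattttcttatatctgctg
Vegfa, chr17:46169039-46169098, minus strand: ttaaatcgtgccaacggtttgaggaggttg
Vegfb, chr19:7056962-7057019, minus strand: atgataactgtgacacacacacacactcac
Vegfc, chr8:55271533-55271592, plus strand: tctgtgtttattgaaccatgtggattactg
Pgf, chr12:86508335-86510337, minus strand: tagaaactcacagactgaggaaccccaccc
Flt1, chr5:148373791-148373850, minus strand: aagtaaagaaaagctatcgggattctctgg
Kdr, chr5:76329309-76329368, minus strand: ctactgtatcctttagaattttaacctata
Flt4, chr11:49465646-49465705, plus strand: agcttaccctatacttttacctgactttaa
Nrp1, chr8:131026650-131026709, plus strand: ttgtggatggtgtaaagttgaaaaaagata
Nrp2, chr1:62865129-62865188, plus strand: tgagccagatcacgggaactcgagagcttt
The Pgf probe spans 2003 bases of genome, so by these coordinates it bridges an intron. Which exon or untranslated region the other probes lie in was not determined here.

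Signals are given as log2 of the processed signal relative to the array's own 75th percentile, so that 0 is the brightness of a spot at that percentile and 1 unit is a change by a factor of 2. This is called the relative signal. Levels were compared between arrays for one probe. Between probes they were used only to pick the brightest probe and in the summaries of marker lists, where brighter probes weigh more in a sum. The gene value is that of its brightest tested probe.

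The targeted gene was read first. The brighter Kdm5b probe read -0.87 and -1.81 in WT (arrays 2 and 3) and -2.40 and -2.26 in KO, a KO minus WT difference of -0.996, with -1.53 at number 2 and -0.46 at number 3. The dimmer probe gave -1.19, with -1.92 and -0.46. On either probe the KO values were the lowest of the 4, in the direction of the labels, but neither difference passed limma (adjusted p = 0.9999). The probes lie at chr1:136485365-136485424 and chr1:136528957-136529016. This is farther apart than the length of the deletion that the paper gives, so both cannot lie in it. Which of them, if any, lies in the deleted stretch was not determined here.

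Genes linked to sex did not match the label on every array. For Xist, the RNA that coats the inactive X chromosome, WT 2 and KO 2 gave log2 processed signals of 14.13 and 13.24, and WT 3 and KO 3 gave 1.92 and 2.01. For Ddx3y, a gene of the Y chromosome, WT 2 and KO 2 gave 2.12 and 1.63, and WT 3 and KO 3 gave 11.88 and 11.44. Arrays numbered 2 in both groups thus carried Xist signal and no Y-linked signal above background, the pattern of female tissue. Those numbered 3 had the opposite, the pattern of male tissue. Array number and this sex-linked pattern therefore cannot be told apart. The members' differences are therefore also given within each number, where both arrays share this pattern. All 4 arrays lay on 1 slide scanned on 1 day, with WT at positions 1 and 2 and KO at positions 3 and 4, so position and genotype cannot be told apart.

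None of the 9 genes passed the test between genotypes. On average 7 were higher in KO (Vegfa, Vegfb, Pgf, Flt1, Kdr, Nrp1 and Nrp2) and 2 were lower (Vegfc and, except with normexp background correction, Flt4), with differences from -0.42 for Vegfc to 0.39 for Vegfb on the log2 scale and a median of 0.29, beside 0.04 over all tested genes. These sizes depend on the scaling: after quantile normalization the differences were 0.12 for Vegfa, 0.12 for Vegfb, 0.08 for Flt1, 0.21 for Kdr and 0.19 for Nrp2, and Pgf, at 0.32, had the largest upward one. With limma, 0 of 9 reached an adjusted p under 0.05 with a fold change over 2, and the background was 0% of 28304 tested probes. At an unadjusted p under 0.05 the count was 0 of 9, where 1.45% of tested probes passed. The methods' t-test also gave 0 members, although 88 probes met its unadjusted cutoffs, and none of these held after Benjamini-Hochberg adjustment. By size alone, no member differed by more than 2-fold in either direction, a size that 1.14% of tested genes exceeded upward and 2.35% downward. The smallest two-sided p that exact permutation of 2 against 2 arrays allows is 0.333.

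**Figure D1:**
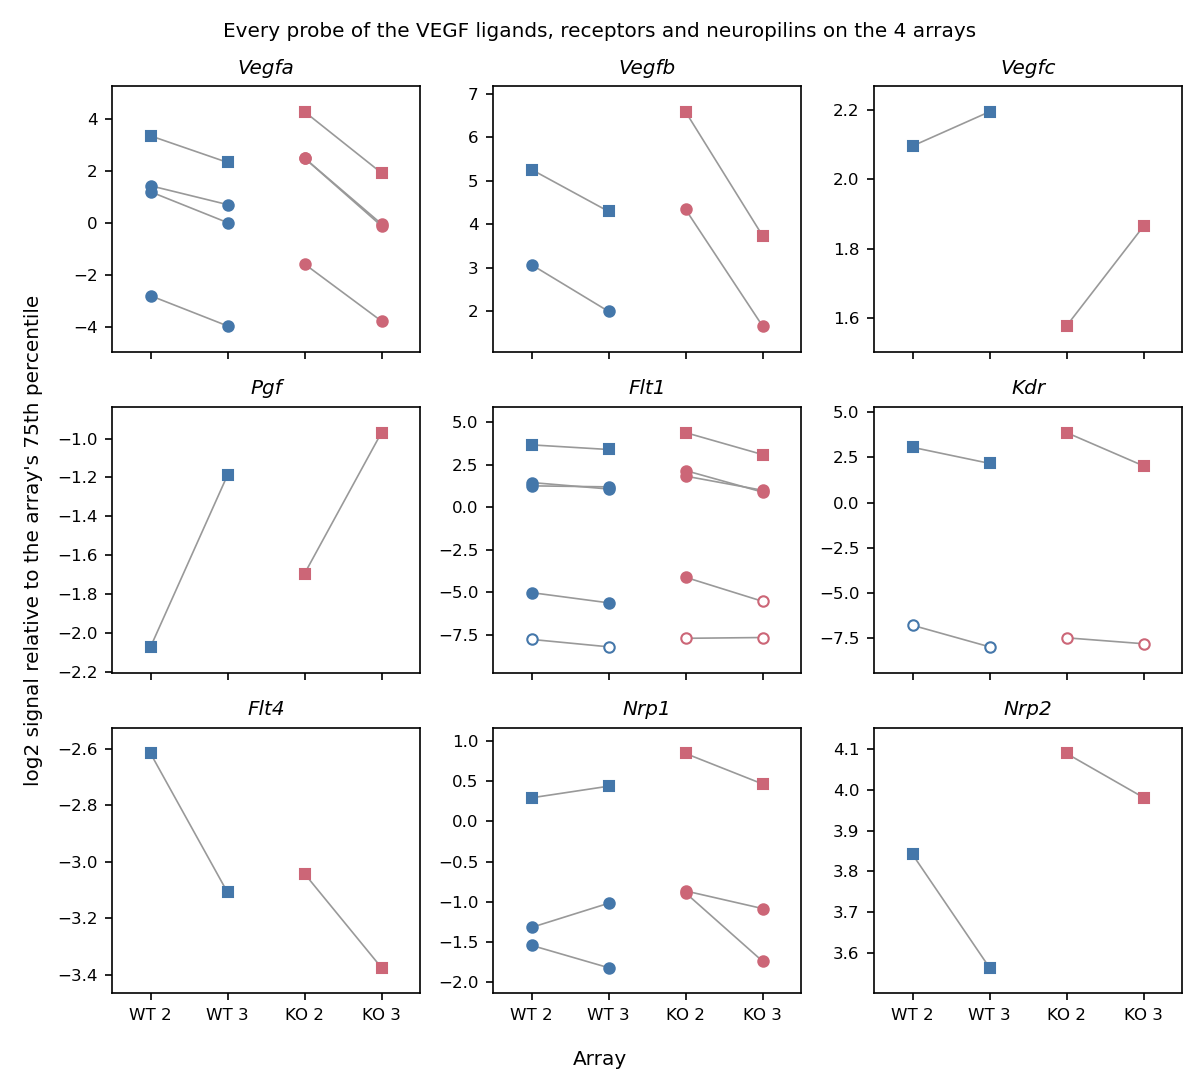
Each panel shows 1 gene, with the relative signal (log2, against the 75th percentile of the array) on the y axis and the 4 arrays on the x axis, WT in blue and KO in red. Squares are the probe used for the gene, circles its other probes, open symbols are not well above background, and grey lines join the 2 arrays of a genotype. For Vegfa, Vegfb, Flt1 and Kdr the brightest probe was highest on KO 2 and lowest on KO 3, whereas those of Vegfc, Nrp1 and Nrp2 separated the genotypes, Nrp1 narrowly.

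Vegfa encodes the main angiogenic ligand. Its brightest probe had relative signals of 3.34 on WT 2 and 2.32 on WT 3, and of 4.27 on KO 2 and 1.92 on KO 3. The KO arrays thus lay on either side of the WT arrays. The group means were 2.83 ± 0.72 in WT and 3.09 ± 1.66 in KO (SD, n = 2 each), a difference of 0.26 (standard error 0.96, 95% confidence interval -2.47 to 2.99). Within number 2 the KO array was higher by 0.93, a ratio of 1.90, and within number 3 the difference was -0.40, a ratio of 0.756. The KO arrays differed from each other by 2.35 and the WT arrays by 1.02, both more than the genotype means did.

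The other Vegfa probes repeated the order of the arrays at the high end. The probe at chr17:46155512-46155571, printed on 10 spots per array, had 1.43, 0.70, 2.49 and -0.04 on WT 2, WT 3, KO 2 and KO 3. Its spots scattered by an SD of only 0.053 to 0.088 within an array, so spot noise was far below the distance between arrays. The dimmest probe, at chr17:46169039-46169098, had -2.79, -3.95, -1.57 and -3.77, so that here KO 3 was slightly above WT 3, by 0.19. Each of these Vegfa probes was higher in KO on average, by 0.16 to 0.70.

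Vegfb, a ligand of Flt1 that is abundant in heart muscle, spread the most. Its brightest probe read 5.26 and 4.29 in WT and 6.59 and 3.74 in KO, arrays 2 and 3 in turn. Its group means were 4.77 ± 0.68 in WT and 5.16 ± 2.02 in KO (SD, n = 2 each), which differed by 0.39 with a standard error of 1.12. The order was that of Vegfa, with KO 2 on top and KO 3 at the bottom. KO was 2.52 times WT at number 2 and 0.680 times WT at number 3. The second Vegfb probe, at chr19:7057245-7057304, gave 3.06, 1.99, 4.34 and 1.66 and differences of 1.28 at number 2 and -0.34 at number 3.

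Vegfc, the lymphangiogenic ligand, had 2.10 and 2.19 in WT and 1.58 and 1.86 in KO. Both KO arrays were below both WT arrays, and the WT arrays were close together. KO minus WT came to -0.42 (standard error 0.23, 95% confidence interval -1.08 to 0.23), with an unadjusted limma p of 0.144 and an adjusted p of 0.9999. It was -0.52 at number 2 and -0.33 at number 3, a ratio of 0.698 and 0.796.

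Pgf, the gene of placental growth factor, had -2.07 and -1.19 in WT and -1.70 and -0.97 in KO. The groups overlapped, since WT 3 was above KO 2, but KO was above WT within each number, by 0.38 at number 2 and 0.22 at number 3. The mean difference of 0.30 had a standard error of 0.46. Unlike Vegfa and Vegfb, Pgf was higher on both arrays numbered 3 than on those numbered 2. Without WT 2 its mean difference became -0.14, and without KO 3 it became -0.07.

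Flt1, the high-affinity receptor for VEGF-A, read 3.66 and 3.39 in WT and 4.39 and 3.09 in KO on its brightest probe. The KO arrays again enclosed the WT arrays. KO minus WT was 0.21 (standard error 0.52) over all arrays, 0.72 at number 2 and -0.30 at number 3. The neighbouring probe at chr5:148373864-148373923 gave 1.45, 1.07, 2.15 and 0.88. The probe at chr5:148449781-148449840, far upstream in the gene, gave 1.25, 1.19, 1.82 and 0.99, so that KO 2 stood above a tight group of the other arrays. A dim probe at chr5:148465976-148466035 read -5.03, -5.63 and -4.13 on WT 2, WT 3 and KO 2 and was not well above background on KO 3. The fifth Flt1 probe was not well above background on any array and was not tested.

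Kdr encodes the principal signalling receptor for VEGF-A. Its tested probe, also on 10 spots per array, read 3.06 and 2.17 in WT and 3.87 and 2.03 in KO. The order was once more KO 2, WT 2, WT 3, KO 3, with KO 3 near WT 3. The group means of 2.61 ± 0.63 in WT and 2.95 ± 1.30 in KO (SD, n = 2 each) differed by 0.34 (standard error 0.77, 95% confidence interval -1.86 to 2.54). KO was 1.76 times WT at number 2 and 0.909 times WT at number 3. A second Kdr probe was not well above background on any array.

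Flt4, the receptor of lymphatic endothelium, was dim, with -2.62 and -3.11 in WT and -3.04 and -3.38 in KO. KO was below WT within each number, by -0.43 and -0.27, while KO 2 was above WT 3 and the groups overlapped. The mean difference was -0.35 with a standard error of 0.30. It depended on how background was removed: with the normexp correction it was 0.08.

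Nrp1, a co-receptor for VEGF-A, had 0.29 and 0.44 in WT and 0.85 and 0.47 in KO on its brightest probe. Both KO arrays were above both WT arrays, but KO 3 by only 0.03 over WT 3. KO minus WT was 0.29 (standard error 0.25). On the probe at chr8:130992273-130992332 the values were -1.32, -1.02, -0.86 and -1.08 on WT 2, WT 3, KO 2 and KO 3, so that KO 3 was below WT 3 and the separation was lost. The probe at chr8:130884009-130884068 read -1.54, -1.82, -0.89 and -1.74, again with overlapping groups.

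Nrp2, a co-receptor for VEGF-C as well as for axon guidance ligands, had 3.84 and 3.56 in WT and 4.09 and 3.98 in KO. Both KO arrays were above both WT arrays. The group means were 3.70 ± 0.20 in WT and 4.04 ± 0.08 in KO (SD, n = 2 each), and differed by 0.33 (standard error 0.23, 95% confidence interval -0.32 to 0.99). At number 2 the difference was 0.25 and at number 3 it was 0.42, making Nrp2 the one member whose upward difference was larger at number 3. It rested on a single probe, as did the values of Vegfc, Pgf and Flt4.

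**Figure D2:**
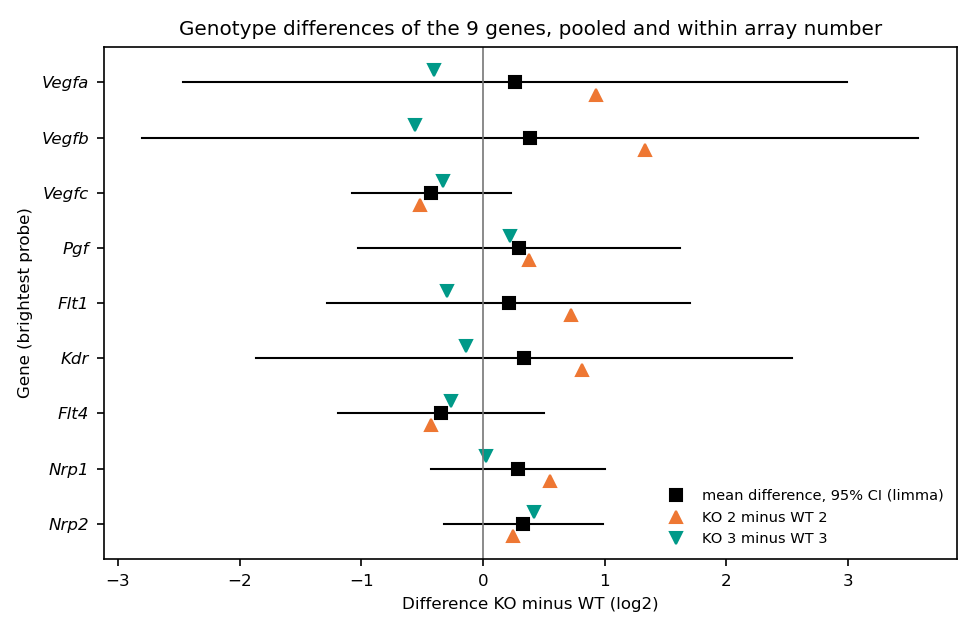
The KO minus WT difference (log2, x axis) of the brightest probe of each gene (y axis), with black squares for the difference of means, lines for its 95% confidence interval from limma, orange triangles for KO 2 minus WT 2 and green triangles for KO 3 minus WT 3. All 9 intervals include 0, and the triangles lie on opposite sides of 0 for Vegfa, Vegfb, Flt1 and Kdr.

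Across the family, the direction differed between the array numbers for 4 genes. For Vegfa, Vegfb, Flt1 and Kdr, KO exceeded WT at number 2 and was below it at number 3, 4 of 9 members beside 27.6% of all tested genes. The same 4 genes shared the full order KO 2, WT 2, WT 3, KO 3, which 19.6% of tested genes had. These 4 were read on the same arrays and are not independent of each other. Pgf, Nrp1 and Nrp2 were higher in KO at both numbers, and Vegfc and Flt4 lower at both. The median difference over the members was 0.55 at number 2 and -0.27 at number 3, beside 0.04 and 0.03 over all tested genes. Of the 18 tested probes, 16 were higher in KO on average, and 10 had opposite signs at the 2 numbers. Several of these probes read the same gene and are not independent. The share of all tested probes with such signs was not counted, so these counts show no shift of the family. Both KO arrays were above both WT arrays for 2 of 9 members (Nrp1 and Nrp2), beside 13.3% of tested genes, and below for 1 of 9 (Vegfc), beside 8.9%. These separations came close to the shares over all genes.

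The sign of 5 of the 9 averages changed when 1 array was left out. Without KO 2 the difference became -0.91 for Vegfa, -1.04 for Vegfb, -0.43 for Flt1 and -0.58 for Kdr. Without WT 3 it became -0.25 for Vegfa, -0.09 for Vegfb and -0.10 for Kdr. Pgf, as given above, turned without WT 2 or KO 3. Vegfc, Flt4, Nrp1 and Nrp2 kept their sign whichever array was left out. For Vegfc, Nrp1 and Nrp2 this restates that both KO arrays lay beyond both WT arrays on the probe used.

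Markers of cell types differed between the same arrays. In bulk tissue, fewer cells of a type and less RNA per cell cannot be told apart. Every marker gene in the lists used was well above background on all 4 arrays, so none was at 0. The summed signal of 8 cardiomyocyte markers, in multiples of the 75th percentile, came to 1342 and 744 in WT and to 2213 and 559 in KO, arrays 2 and 3 in turn, and 7 of the 8 had the order KO 2, WT 2, WT 3, KO 3 that Vegfa, Vegfb, Flt1 and Kdr had. Myh6, the main myosin heavy chain of adult heart muscle, had relative signals of 6.59, 5.47, 7.68 and 3.99. Muscle markers and these 4 genes were thus high and low on the same arrays.

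The 8 endothelial markers summed to 59.3 and 62.8 in WT and to 88.8 and 52.2 in KO, and in all 8 KO exceeded WT at number 2 but not at number 3. Pecam1, an adhesion molecule of endothelial cells, had relative signals of -0.06, 0.20, 0.49 and -0.09 in that order of arrays. KO 2 was the highest array for the endothelial list, as it was for Flt1 and Kdr, but WT 2 was not above WT 3. The 7 macrophage markers ran the other way, with sums of 283, 296, 170 and 336, of which Lyz2 (named after its values were seen) was the largest part. The 6 fibroblast markers gave 791, 681, 525 and 717, set mostly by the brightest genes. Mean relative signals, which weigh each gene alike, were 3.01, 3.36, 1.85 and 3.67 for macrophage markers. For fibroblast markers they were 5.51, 5.64, 4.71 and 5.47. At number 3 the fibroblast sum was thus higher in KO but the mean lower, and all 6 were lower in KO on average. The 4 neutrophil markers summed to 26.2, 33.0, 4.88 and 33.6, so that KO 2 was far below the other arrays. The 6 mural cell markers summed to 38.7 to 44.6, but single markers varied more and in opposite directions: Pdgfrb, a receptor of pericytes, had 3.76, 4.43, 3.13 and 4.35, and in 4 of the 6 KO exceeded WT at number 2 but not at number 3. Neither the part of muscle content nor that of the other cell types in the VEGF values was tested.

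The 6 lymphatic endothelial markers summed to 29.8 and 8.98 in WT and to 14.7 and 3.40 in KO, lower in KO at each number, and 5 of the 6 were lower on average. The largest part of the sum on each array was Ccl21a, a lymphatic chemokine (relative signals 4.68, 2.54, 3.35 and 0.73), and besides it Reln and Mmrn1 were lower in KO at both numbers. Lyve1, a hyaluronan receptor, differed by 1.34 at number 2 and -0.75 at number 3, and Pdpn by -1.70 and 0.70, so the list did not go one way (Ccl21a, Reln, Mmrn1 and Pdpn are named after their values were seen). Flt4 and Vegfc, the lymphatic receptor and ligand, were lower in KO at each number, Flt4 not so at number 3 with normexp background correction. Prox1, the transcription factor that marks lymphatic cells but is also made in heart muscle, had relative signals of -0.15, -1.41, 0.45 and -2.11, in the array order of the muscle markers. The part of lymphatic content in the Flt4 and Vegfc values was not tested.

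**Figure D3:**
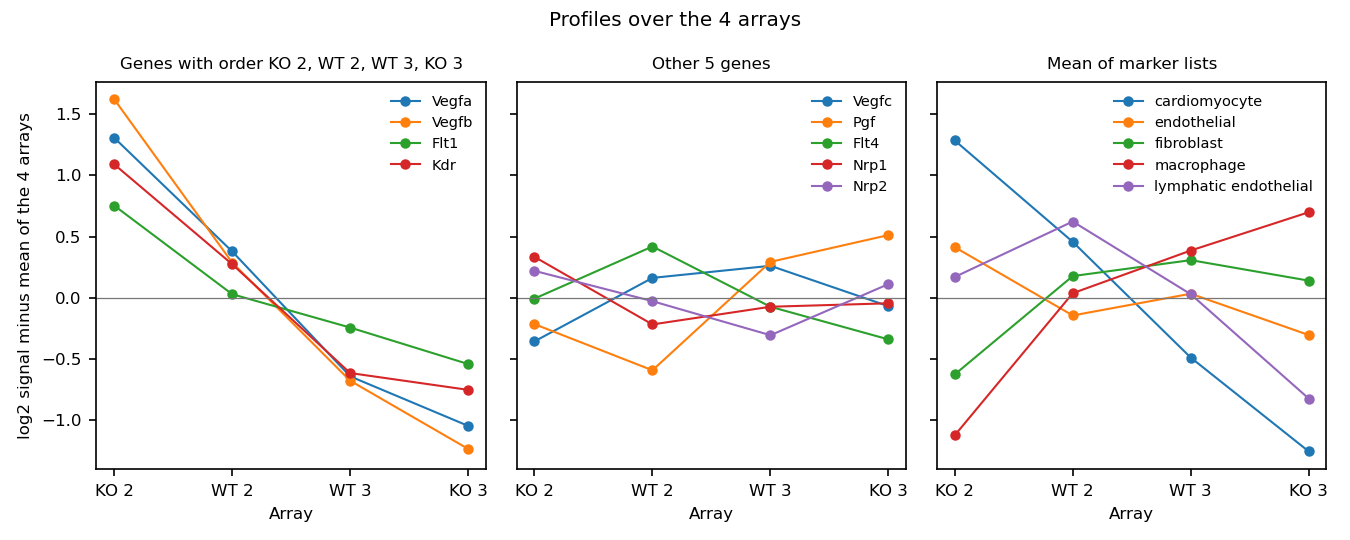
Relative signal (log2) minus the mean of the 4 arrays (y axis) on each array (x axis, in the order KO 2, WT 2, WT 3, KO 3). The left panel holds Vegfa, Vegfb, Flt1 and Kdr, the middle panel the other 5 genes and the right panel the mean over the markers of 5 cell types. The left panel falls from KO 2 to KO 3 as the cardiomyocyte line does, while the macrophage line is lowest on KO 2 and highest on KO 3.

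Likeness between profiles was measured as the Euclidean distance between the 4 relative signals after subtracting their mean, a description over 4 arrays. Vegfa lay 0.38 from Vegfb and 0.38 from Kdr, and Nrp1 lay 0.36 from Nrp2, while Pgf lay 2.56 from Vegfa. Over 15061 other genes, the nearest to Vegfa were Pik3c2b, Aldh4a1 and Fabp3, the last a fatty acid carrier of heart muscle, all at distances up to 0.064. The nearest to Kdr were Clip4, Phf24 and Twf2, up to 0.069. Pgf had Xlr4b, Sh3bgrl2 and Gja5 as its nearest genes, up to 0.11, and Nrp2 had Fthl17e, Gsx1 and 1700031A10Rik, up to 0.042. With 4 arrays many genes lie this close: 362 other genes were nearer to Vegfa than Kdr was.

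Promoters were read for shared letters because 4 members had the same order of arrays. RefSeq's promoter table on GRCm38.p6 held 11 promoters for the 9 genes, with more than one for Vegfa and Pgf, and the 250 bases before each start were searched on both strands. The GC box GGGCGG was found in 10 of 11, and in at least 1 promoter of all 9 genes, while 32.7% of 32851 promoters held it. The core AGGAAG, bound by ETS factors, was found in 2 of 11 (Flt1 and Nrp1), beside 29.5%, and the core ACGTG of hypoxia response elements in 1 of 11, the second Vegfa promoter at chr17:46025164-46025413, beside 16.6%. The GC box was thus common to members whether or not they shared the array order. The promoters of the receptors Kdr and Flt1 are shown in the direction of the gene, with both motifs, on either strand, in capitals.
Kdr promoter, chr5:75978456-75978705, minus strand: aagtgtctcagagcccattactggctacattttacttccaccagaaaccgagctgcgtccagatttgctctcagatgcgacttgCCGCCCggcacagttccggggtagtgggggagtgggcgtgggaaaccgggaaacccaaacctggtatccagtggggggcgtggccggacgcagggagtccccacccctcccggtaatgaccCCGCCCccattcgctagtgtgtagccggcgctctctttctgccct
Flt1 promoter, chr5:147726012-147726261, minus strand: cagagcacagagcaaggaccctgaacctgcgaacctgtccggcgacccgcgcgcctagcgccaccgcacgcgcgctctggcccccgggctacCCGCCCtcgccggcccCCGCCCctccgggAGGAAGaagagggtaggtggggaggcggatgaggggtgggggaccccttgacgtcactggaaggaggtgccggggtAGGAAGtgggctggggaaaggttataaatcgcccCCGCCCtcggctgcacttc
Kdr held 2 GC boxes and no ETS core, and Flt1 held 3 GC boxes and 2 ETS cores. CpG pairs numbered 16 in the Kdr stretch and 23 in the Flt1 stretch. Their median was 16 over the members' promoters, beside 6 over all promoters. The GC box itself holds a CpG pair, and its share over all promoters was not matched for CpG content. A match describes letters and not a bound factor.

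The wider pathway was examined in 4 lists with 85 genes, all of which were tested. None was called by limma, 46 were higher in KO on average and 39 lower, and the median difference was 0.03, beside 0.04 over all tested genes. At an unadjusted p under 0.05 limma passed 1 of 85, Ccbe1, beside 1.45% of all tested probes. By size, 3 of 85 exceeded a 2-fold difference, all lower in KO (Vegfd, Ccbe1 and Angpt2, the last named after its value was seen), beside 2.35% of all tested genes. These counts lay near or below the shares over the whole array.

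Among 12 modulators of ligands and receptors, 4 were higher and 8 lower, with a median of -0.26. Vegfd, the other lymphangiogenic ligand, which the array lists as Figf, had relative signals of 2.88 and 4.25 in WT and 1.30 and 3.53 in KO, a difference of -1.15 (standard error 0.98). Ccbe1, a secreted factor that aids the processing of VEGF-C, had -0.58 and 0.26 in WT and -1.16 and -1.37 in KO. Both KO arrays were below both WT arrays, and the difference of -1.10 had an unadjusted limma p of 0.0463 and an adjusted p of 0.9999. The array holds 4 Ccbe1 probes, and only the brightest tested one is given here. Adamts3, the protease that cleaves VEGF-C, differed by -0.17, with -0.24 at number 2 and -0.10 at number 3. Ptprb, a phosphatase that restrains the Kdr kinase, differed by 0.26, with 0.49 and 0.03 at the 2 numbers. Cdh5, the endothelial cadherin, differed by 0.33, with opposite signs of 0.68 and -0.03.

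Of 13 genes that control Vegfa, through hypoxia or at the level of its RNA, 8 were higher and 5 lower, with a median of 0.06. Hif1a, the oxygen-regulated subunit of the hypoxia factor, had 2.25 and 1.99 in WT and 1.80 and 1.94 in KO, a difference of -0.25, with both KO arrays below both WT arrays, though by only -0.04 at number 3. Its relative Epas1 had 5.58, 5.36, 6.16 and 5.13 on WT 2, WT 3, KO 2 and KO 3, the order of arrays that Vegfa had. Vhl, which marks these factors for destruction, differed by -0.17, with opposite signs of -0.54 at number 2 and 0.19 at number 3. Egln3, a prolyl hydroxylase that hypoxia induces, differed by 0.48, with 0.81 and 0.16.

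Of 46 receptor signalling genes, 26 were higher and 20 lower, with a median of 0.03 and no difference over 2-fold. Plcg1, the phospholipase that docks on the activated Kdr kinase, differed by -0.10, with 0.14 at number 2 and -0.33 at number 3. Sh2d2a, an adaptor of the same receptor, differed by 0.05, with 0.08 and 0.02. Nos3, the endothelial nitric oxide synthase, had 0.56, 0.44, 1.33 and 0.12 on WT 2, WT 3, KO 2 and KO 3, again highest on KO 2 and lowest on KO 3.

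Of 14 genes that VEGF signalling induces, 8 were higher and 6 lower, with a median of 0.24. Dll4, the Notch ligand of tip cells, had -2.77 and -2.96 in WT and -1.92 and -2.48 in KO, a difference of 0.67 (standard error 0.29) in which both KO arrays were above both WT arrays. Rcan1, an inhibitor of calcineurin, ran the other way, with 2.95 and 2.56 in WT and 2.47 and 2.01 in KO. Esm1, a tip cell proteoglycan, differed by 0.61, with 0.12 at number 2 and 1.11 at number 3. Apln, an angiogenic peptide, differed by 0.35 and Nr4a1, an immediate early transcription factor, by 0.64. For Nr4a1 and Apln, KO minus WT was 1.44 and 1.04 at number 2 but -0.15 and -0.34 at number 3, so that signs differed among the responsive genes and between the numbers.

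**Figure D4:**
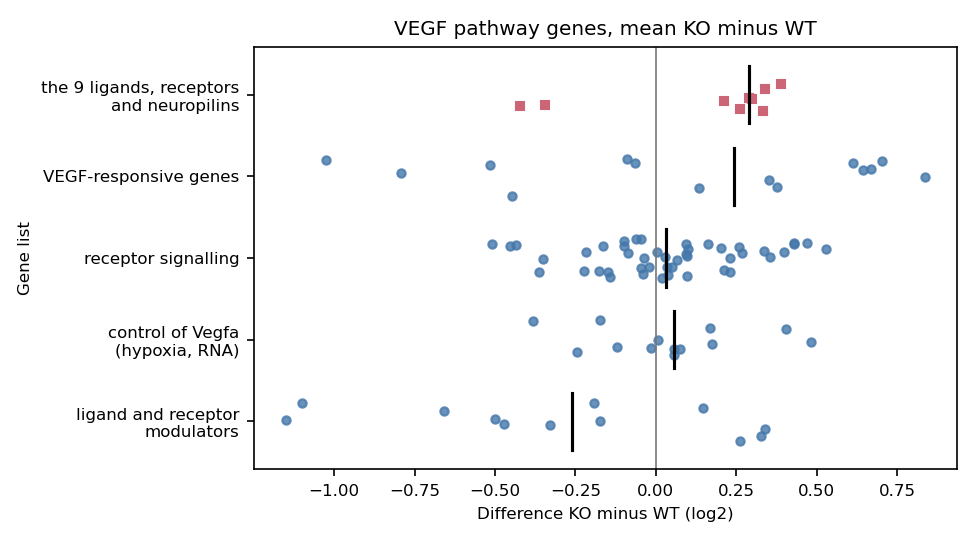
KO minus WT difference (log2, x axis) of each gene of the 4 pathway lists (blue points) and of the 9 ligands, receptors and neuropilins (red squares), by list (y axis, points spread vertically for legibility), with black bars at the medians. No gene was called. The medians run from -0.26 for the modulators to 0.29 for the 9 genes.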

How the data were processed

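The authors hybridised Cy3-labelled RNA to 1-colour arrays and deposited intensity values per spot (processed signal, background-subtracted) from Agilent Feature Extraction 10.7, version 10.7.3.1 per the file headers. The authors also deposited log2 values normalized in GeneSpring, per the methods, by an algorithm not given in the sources used here. Between 99.9% and 99.96% of their 41168 rows lay within 0.01 of quantile-normalized log2 signals, so their direction is that of the scanner. The series compares KO with WT, grouped by title.

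Here, flagged (92 to 116 per array) and control spots were left out, spots of a probe averaged, and log2 signals shifted by the array's 75th percentile. Of 41174 probes, 68.2% to 72% per array were well above background. Probes well above background on both arrays of a group were tested (28304). limma 3.58.1 in R 4.3.3 (lmFit, eBayes) compared genotypes, with Benjamini-Hochberg adjustment over all tested probes, and was checked on simulated data. Calls needed a fold change over 2 and an adjusted p under 0.05, the cutoffs of the methods. The 4 arrays limit the precision. The labels do not say what sets replicates apart beyond their number. In both genotypes Xist and Ddx3y had the pattern of female tissue at number 2 and of male tissue at number 3. The p-values thus measure only the spread between these arrays, and without the replicate block that spread includes the difference between the numbers. Members, lists and named genes were chosen with earlier results of these data known: all members, set pathway genes, and the 3 nearest profiles of Vegfa, Pgf, Kdr and Nrp2. One probe is not reported here by sequence. Alternatives changed the background correction, scaling, filter, probes, test, replicate block or arrays used.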

Additional observations from a re-analysis of the deposited data

Results flagged for a closer look

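KO differed from WT in opposite directions at the 2 array numbers for 4 genes. Vegfa was 0.93 higher on the log2 scale at number 2 and -0.40 at number 3. Vegfb gave 1.33 and -0.56, Flt1 gave 0.72 and -0.30, and Kdr gave 0.82 and -0.14. Each value compares 1 array per genotype, and the difference between the numbers was not tested. The numbers cannot be told apart from the pattern of Xist and Ddx3y.

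Xist, which belongs to no comparison of genotypes, had a log2 processed signal of 14.13 on WT 2 and 13.24 on KO 2, although these mice were labelled male, while negative control spots averaged 2.31 and 1.94 there.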

How the results depend on the processing

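Apart from leaving out arrays, the alternatives gave 108 values of the 9 genotype differences, of which all but 1 kept their sign and their side of the threshold. The exception was Flt4 with normexp background correction, at 0.081 over all arrays, 0.196 at number 3 and -0.034 at number 2. Alternatives that changed only the filter, the test, the array weights or the replicate block returned the main estimates unchanged. Their kept signs thus say nothing on stability, and only changes of background correction, scaling or probes moved an estimate. Sizes moved more: quantile normalization, and within 0.01 of it the authors' values, cut Vegfa to 0.119, Vegfb to 0.125, Flt1 to 0.076, Kdr to 0.21 and Nrp2 to 0.191. Normexp gave 0.139 for Flt1, and averaging all probes gave 0.426 for Vegfa. Nrp2 at number 2 shrank to 0.0296 after quantile normalization and to 0.0292 in the authors' own values. All 43 recounts of members or pathway genes called, over 2-fold or separated stayed within 1.5 times the main count, and no member or pathway gene was called in any.

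Leaving out 1 array at a time, where the lone array of a genotype is assumed to vary like the others, gave differences from -0.91 to 1.44 for Vegfa, -1.04 to 1.81 for Vegfb, -0.57 to -0.28 for Vegfc, -0.14 to 0.74 for Pgf, -0.43 to 0.86 for Flt1, -0.58 to 1.26 for Kdr, -0.59 to -0.10 for Flt4, 0.10 to 0.48 for Nrp1 and 0.19 to 0.47 for Nrp2. Members over 2-fold ranged from 0 to 3, with 1 without KO 2 and 3 without KO 3. The lowest adjusted p of a member was 0.178. Separation of genotypes was not recounted with an array left out.

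The shared array numbers were examined as a replicate block. Over 28304 probes the number 2 minus number 3 differences of WT and KO correlated at 0.57, with only 2 pairs, so the arrays share a number and pairing is not established. With the block the estimates stayed as they were, for example 0.26 for Vegfa with a standard error of 0.43, each adjusted p was 0.9949, and the calls stayed at 0. A slide or scan block could not be fitted, with 1 slide and 1 scan day. With 2 arrays per genotype and no block, intervals such as -1.86 to 2.54 for Kdr allow differences over 2-fold either way. That width includes the difference between the numbers: the standard error for Kdr was 0.77 without the block and 0.35 with it. The dim probes of Flt1, Kdr and Flt4 are limited by signal over background.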
